A study of Arabidopsis thaliana with 18 samples.

Results

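Seedlings of the line h3.3kd were compared with the wild type Col at 27 °C by RNA-seq. The comparison held 6 of the 18 libraries of the series, chosen by their labels: 3 of h3.3kd and 3 of Col, all from 7-day-old Arabidopsis thaliana seedlings kept in short days at 27 °C. The genotype of the h3.3kd libraries is labelled h3.3kd-1, and the sources used here do not say how the line was made or whether it stands for 1 transformant. The remaining libraries, used to estimate the spread and for the comparison at 21 °C, were 3 each of h3.3kd and Col at 21 °C and 3 each of elf7-3 at both temperatures. No label tells whether the replicates of a group came from separate sowings, so each p-value rests on differences among libraries of a group that may be no more than technical.

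Nucleosomes are built from the core histones H2A, H2B, H3 and H4, and the linker histone H1 binds outside the core. Histone H3 exists as H3.1, which is laid down mainly when DNA is replicated, and as the variant H3.3, which can be laid down at any time and is abundant over transcribed genes. In moderate warmth seedlings elongate their hypocotyls and petioles, a growth response called thermomorphogenesis, which runs through the transcription factor PIF4 and the hormone auxin. The series title places the study between H2A.Z removal, H3.3 deposition and this response.

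Stretches of the reference genome are given first for the histone genes whose changes are described below in most detail. They were read from RefSeq's TAIR10.1 assembly, 5′ to 3′ in the direction of the gene, in lower case, with capitals marking the histone octamer motif CGCGGATC (searched on both strands). The first pair are the 250 bases before the annotated start of the H4 genes with the largest and the smallest rise, AT3G53730 and AT1G07660. The last is the whole stretch between HTR5 and its neighbour AT4G40042, read on the plus strand.
AT3G53730, chr3:19913516-19913765, minus strand: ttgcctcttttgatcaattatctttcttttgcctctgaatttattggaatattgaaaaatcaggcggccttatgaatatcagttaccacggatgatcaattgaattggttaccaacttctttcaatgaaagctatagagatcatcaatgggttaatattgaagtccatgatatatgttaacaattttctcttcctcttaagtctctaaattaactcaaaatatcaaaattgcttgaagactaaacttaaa
AT1G07660, chr1:2368583-2368832, plus strand: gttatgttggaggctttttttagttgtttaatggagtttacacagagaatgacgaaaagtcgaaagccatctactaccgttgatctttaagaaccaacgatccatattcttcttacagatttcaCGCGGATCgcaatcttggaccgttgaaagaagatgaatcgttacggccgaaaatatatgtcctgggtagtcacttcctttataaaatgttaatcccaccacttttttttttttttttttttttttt
HTR5 to AT4G40042, chr4:18558946-18559096, plus strand: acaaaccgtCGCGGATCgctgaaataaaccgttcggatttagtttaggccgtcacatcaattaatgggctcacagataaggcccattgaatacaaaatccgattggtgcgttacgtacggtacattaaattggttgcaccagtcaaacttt
The octamer was found in the second and the third of these and not in the first. It stood in the same 250-base window of 29 of the 19088 genes tested (0.152%), of 2 of the 8 H4 genes and of 3 of the 5 H3.1 genes. The other H4 gene with it was AT5G59690, whose rise was not among the smallest. Of the further families, 3 of 10 H2A genes other than H2A.Z, 1 of 3 H1 genes and 1 of 3 H3.3 genes had it. None of the 10 tested H2B genes did. The hexamer motif ACGTCA, also searched on both strands, stood in 1530 windows (8.02%), in none of the 8 H4 windows and in 7 of the 10 windows of tested H2B genes. Neither motif contains the other, and a match of letters shows no binding.

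Levels are TPM, a measure of transcript share per length, scaled again so that nuclear genes sum to 1000000 in each library. Of 27445 nuclear genes, 19088 had at least 1 TPM in 3 or more of the 6 libraries and were tested. A gene below 1 TPM in every library of 1 genotype was tested only through the other genotype. This favours a call with that other genotype as the higher. Differences are on the log2(TPM + 1) scale, h3.3kd minus Col, with standard error, n = 3 libraries a group, and they understate the change of genes at low levels. A gene was called at a Benjamini-Hochberg adjusted p below 0.05 over all genes tested, two-sided, by limma. Within h3.3kd and within Col the libraries correlated at 0.9875 to 0.9916 across genes, and between the genotypes at 0.9431 to 0.9519. Low values put the depth, in units of 1000000 reads, at about 6.72, 10.2 and 9.94 in h3.3kd replicates 1 to 3 and 10, 10.7 and 9.97 in Col, a rough estimate: it rests on annotated exon lengths the authors may not have used, and in these libraries at most 14.1% of low values lay within 2% of the value of 1 read, so whole reads were not recovered. Chloroplast and mitochondrial genes held 3.66, 0.214 and 0.343% of the deposited TPM in h3.3kd against 0.219, 0.25 and 0.252% in Col. The high share was that of h3.3kd replicate 1 alone, also the lowest in that rough estimate of depth, and the exact two-sided permutation test gave p = 0.4, the smallest possible being 0.1.

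At 27 °C, 10225 genes were called (53.6% of those tested). Of these, 4260 were higher in h3.3kd (22.3% of those tested) and 5965 were lower (31.2%). These 2 shares are the background for the count of each gene list below. Most of the changes were small, with a median size of 0.459 among called genes, and 408 genes rose (2.14%) and 884 fell (4.63%) at least 2-fold. The 3 h3.3kd values all lay above the 3 Col values in 24.8% of tested genes and all below them in 34.1%. The median difference over all tested genes was -0.05. With median-of-ratios scaling the split was 5328 higher and 4810 lower, so which direction held more genes depended on the scaling.

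The direction of small changes also went with transcript length. Genes were ranked by annotated exon length and divided into 5 groups of about equal size. Of the 3818 shortest, 29 to 1176 bases, 1419 (37.2%) were called higher and 696 lower, and the median difference was 0.15. Of the 3814 longest, 2595 to 16614 bases, 9.23% were called higher and 51.4% lower, with a median of -0.22. Against each gene's mean over the 6 libraries, the longest group had a median deviation of -0.11, -0.13 and -0.07 in the h3.3kd libraries and of 0.09, 0.09 and 0.15 in the Col libraries, and the groups did not overlap. All 3 h3.3kd libraries lay on one side, so a property of the libraries and the genotype cannot be told apart as the source of this trend, and the small calls carry that limit. An alternative added after seeing the data removed each library's trend against length, which also centres each library: 4754 genes were then higher and 4579 lower, and 8091 of the 10225 calls were shared. The part of length in single calls was not tested.

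**Figure D1:**
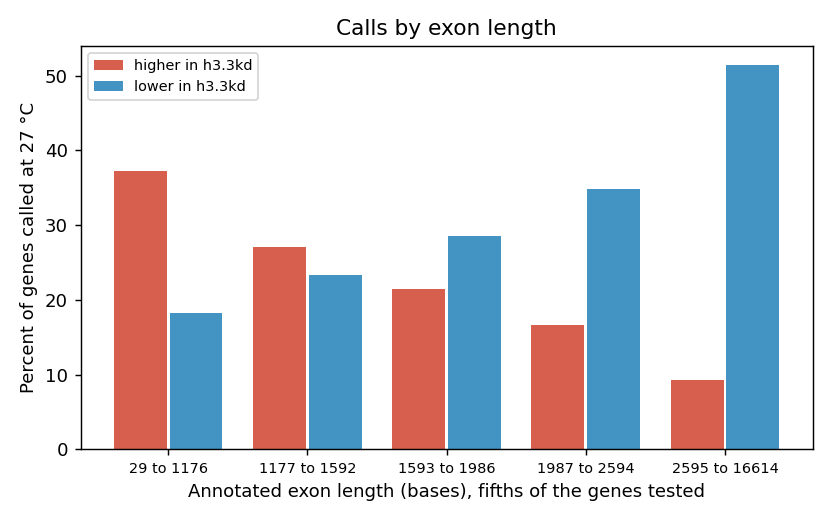
Percent of tested genes called higher (red) and lower (blue) in h3.3kd against Col at 27 °C (vertical axis), in 5 groups of annotated exon length in bases (horizontal axis, shortest left). Genes called higher make up 37.2% of the shortest group and 9.23% of the longest, and genes called lower make up 51.4% of the longest.

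The 3 H3.3 genes were lower in h3.3kd in every library. HTR8 (chromosome 5, 3472405 to 3473570) had 19, 14.7 and 19.3 TPM in h3.3kd against 189, 197 and 184 TPM in Col, a difference of -3.36 ± 0.08 (adjusted p = 5e-16, limma). HTR4 (chromosome 4, 18555532 to 18557106) had 53.3, 53 and 58.7 TPM in h3.3kd against 331, 348 and 338 TPM in Col. HTR5, which lies 42 bases from HTR4, kept the most, with 276, 259 and 272 TPM in h3.3kd against 436, 474 and 433 TPM in Col (-0.73 ± 0.05). In no H3.3 gene did the groups overlap. Together the 3 genes held 341 ± 12.9 TPM in h3.3kd and 977 ± 36.5 TPM in Col (SD, n = 3 each), so 0.349 of the Col level was left. HTR5 made up 77.7 to 79.3% of this sum in the h3.3kd libraries and 45.4 to 46.5% in the Col libraries.

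The gene next to HTR5 moved the other way. AT4G40042, annotated as a subunit of the microsomal signal peptidase, starts 151 bases from HTR5 on the opposite strand, across the stretch printed above. It had 105 ± 6.77 TPM in h3.3kd and 18 ± 1.8 TPM in Col (SD, n = 3 each), with no overlap, a difference of 2.49 ± 0.14 (adjusted p = 1.3e-10, limma). It was singled out after its values were seen. AT4G40045, the next gene on, had 80.8, 87.1 and 86.6 TPM in h3.3kd against 50.1, 54.9 and 56.9 TPM in Col (0.64 ± 0.08). AT4G40020, on the far side of HTR4, was low, at 1.95, 3.92 and 3 TPM in h3.3kd against 0.171, 0.96 and 0.95 TPM in Col (1.23 ± 0.21). All 3 of these neighbours were called higher, with no overlap between the groups, while HTR4 and HTR5 were lower. AT4G40020 passed the filter only through h3.3kd, so a higher level was the only call open to it. Over all tested genes 22.3% were called higher, and 24.8% had every h3.3kd value above every Col value. Whether the neighbours changed together was not tested.

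Most other core and linker histone genes rose in h3.3kd. All 8 H4 genes were called higher, with a median of 2.07, in a comparison where 22.3% of all genes were. The H4, H2A, H2B and H1 lists were put together after their values were seen. The 8 H4 genes encode 1 and the same protein of 103 residues, as translated from the reference, so they differ in their promoters and transcripts and not in their product. AT3G53730 had the largest rise, with 531, 472 and 497 TPM in h3.3kd against 42.7, 47.2 and 37.4 TPM in Col (3.53 ± 0.08, adjusted p = 2.3e-16, limma). AT3G45930 followed with 185, 192 and 186 TPM in h3.3kd against 34.5, 27.7 and 23.1 TPM in Col (2.70 ± 0.11). The smallest rise was that of AT1G07660, with 55.4, 60.1 and 56.4 TPM in h3.3kd against 32.1, 32.9 and 32 TPM in Col (0.80 ± 0.07). Every h3.3kd library was above every Col library in each of these. The other 5 H4 genes rose by 1.94 to 2.27.

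The summed level of the 8 H4 genes was 2336, 2175 and 2225 TPM in h3.3kd against 491, 444 and 399 TPM in Col, a ratio of 5.05. The groups did not overlap, and the exact two-sided permutation test over libraries gave its smallest possible p, 0.1. The longest run of identical bases that each H4 transcript shared with any other was 32 to 160, so reads may have been split between copies. This run was shortest for AT3G53730 (32 bases) and HIS4 (37 bases). H4 transcripts are short, with a median exon length of 734 bases, and their median of 2.07 stood against 0.15 for all tested genes of the shortest of the 5 length groups. With the length trend removed all 8 were still called higher.

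The linker histone genes rose as well. H1.3, a variant induced by drought and low light, had 2198, 1987 and 2241 TPM in h3.3kd against 163, 204 and 187 TPM in Col, a difference of 3.53 ± 0.12 (adjusted p = 1.6e-13, limma). H1.2 had 627, 618 and 604 TPM in h3.3kd against 291, 317 and 285 TPM in Col (1.05 ± 0.08). H1.1 had 551, 546 and 565 TPM in h3.3kd against 319, 329 and 310 TPM in Col (0.79 ± 0.05). In h3.3kd H1.3 was thus the highest of the 3 linker histone genes, and in Col it was the lowest.

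All 5 H3.1 genes were called higher, with a median of 0.97. HTR3 rose the most, from a low level, with 10.9, 9.03 and 9.43 TPM in h3.3kd against 1.57, 2.94 and 2.04 TPM in Col (1.78 ± 0.17). HTR2 had 171, 174 and 167 TPM in h3.3kd against 79.1, 69.2 and 59.4 TPM in Col (adjusted p = 9.4e-10, limma). HTR9 and HTR13 differed by 0.97 ± 0.08 and 0.84 ± 0.15, and HTR1 by 0.50 ± 0.10, with no overlap between the groups. The H3.1 genes are close copies, so reads may have been split between them. Together they held 460 ± 16.6 TPM in h3.3kd and 250 ± 36.8 TPM in Col (SD, n = 3 each). H3.1 and H3.3 together thus changed their order: H3.1 was above H3.3 in all 3 h3.3kd libraries (445, 478 and 458 against 348, 326 and 349 TPM) and below it in all 3 Col libraries (292, 229 and 229 against 956, 1019 and 956 TPM). Of the other H3-like genes HTR6 and HTR14 rose, at 1.39 to 4.97 TPM in h3.3kd against 0 to 0.813 TPM in Col. Both passed the filter only through h3.3kd, so a higher level was the only call open to them. HTR10 and HTR15 were not tested, and HTR11 and HTR12, the centromeric H3, were not called.

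Among 10 tested H2B genes all 10 were called higher, with a median of 1.03. H2B gene AT3G53650 had 19.3, 17 and 18.4 TPM in h3.3kd against 0.784, 2.56 and 4.16 TPM in Col (2.59 ± 0.27), and AT3G09480 rose by 1.94 ± 0.18. HTB9, the most abundant, had 646, 607 and 596 TPM in h3.3kd against 282, 286 and 273 TPM in Col (1.13 ± 0.07). Of 10 H2A genes other than H2A.Z, 7 were called higher and none lower, with a median of 0.51. The largest rises were those of HTA7 (1.33 ± 0.07) and GAMMA-H2AX (1.11 ± 0.07), which encodes the H2A form marked at broken DNA. HTA13, HTA6 and HTA4 were not called, and with the length trend removed 6 were higher and 1 lower. The H2A.Z genes HTA8, HTA9 and HTA11 were not called either: HTA9, the most abundant, had 244, 229 and 209 TPM in h3.3kd against 241, 258 and 226 TPM in Col.

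**Figure D2:**
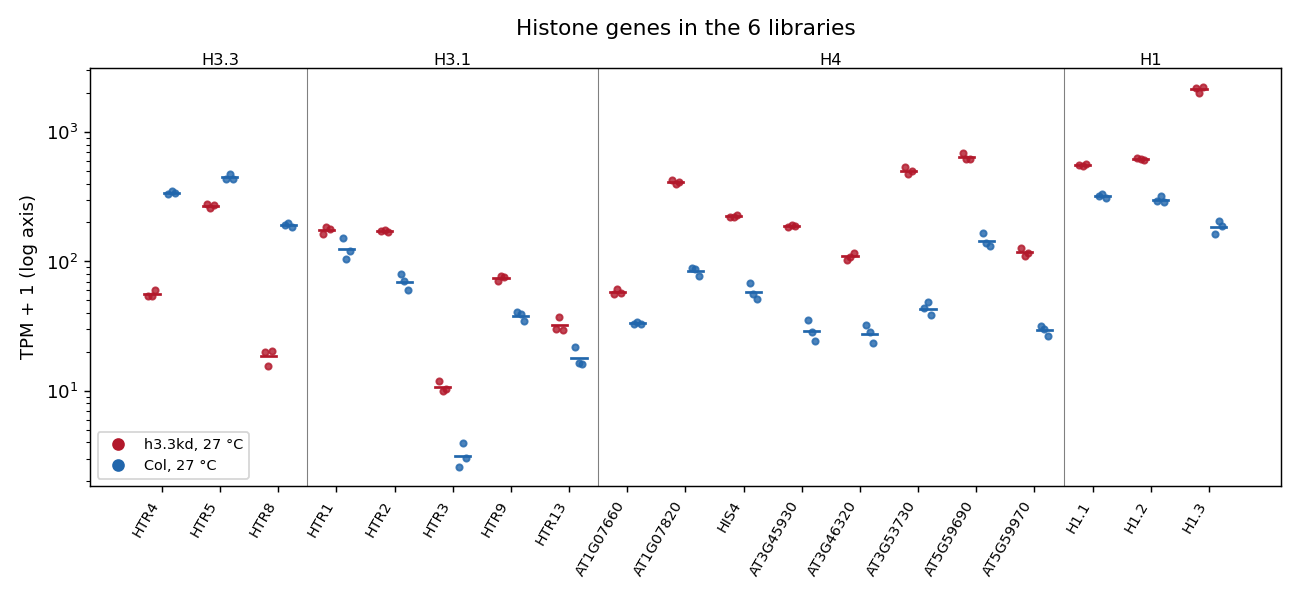
Levels of the H3.3, H3.1, H4 and H1 genes in the 3 h3.3kd (red, left) and 3 Col (blue, right) libraries at 27 °C, as TPM + 1 on a log axis; points are libraries and bars the mean on the log scale. The 3 H3.3 genes are lower in h3.3kd and all H3.1, H4 and H1 genes are higher, H1.3 reaching 1987 to 2241 TPM in h3.3kd against 163 to 204 TPM in Col.

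Histone transcripts of the replicative kind are made mainly in S phase, so cell cycle genes were set beside them. Of 19 cell cycle genes none was called higher and 8 were called lower, against 31.2% lower among all genes, with a median of -0.21. CDKB1;2, a mitotic kinase, had 1.82, 3.69 and 5.32 TPM in h3.3kd against 4.76, 5.2 and 6.67 TPM in Col, and the groups overlapped. Its call was lost with median-of-ratios scaling, with only the compared groups fitted, and without Col replicate 2, Col replicate 3 or h3.3kd replicate 1, where the difference of -0.57 became -0.26. MCM4, a subunit of the replication helicase, had 6.91, 7.16 and 6.36 TPM in h3.3kd against 9.25, 9.04 and 10.7 TPM in Col (-0.45 ± 0.11). CYCD3;1, a cyclin of the entry into S phase, had 30.2, 31.2 and 31.3 TPM in h3.3kd against 38.2, 41.6 and 41 TPM in Col (-0.37 ± 0.09). The count depended on the setting: with median-of-ratios scaling 1 was higher and 4 were lower, without Col replicate 1 it was 1 and 3, and without h3.3kd replicate 1 or with the length trend removed 4 were lower and none higher.

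Of 19 genes on the list of histone variant exchange, made up of the 3 H2A.Z genes and 16 genes for chaperones and remodellers, 7 were called higher and 2 lower, with a median of -0.01; without Col replicate 2 these were 5 and 1, and with the length trend removed 11 and 2. SWC6, a subunit of the SWR1 complex that inserts H2A.Z, had 23.4, 23.2 and 19.9 TPM in h3.3kd against 13.4, 15.5 and 15.5 TPM in Col (0.55 ± 0.10). Of the other SWR1 subunits on the list ARP6 was called lower (-0.24 ± 0.07) and PIE1 (-0.12) was not called. NRP2, a histone chaperone, differed by 0.49 ± 0.10 and ASF1B, an H3-H4 chaperone, by 0.39 ± 0.13, a call that was lost without Col replicate 2 or 3. The H3.3 chaperone subunits HIRA (0.28) and UBN2 (0.37) were called higher and ATRX (-0.07), UBN1 (-0.15) and CABIN1 (-0.03) were not called. FAS1, the large subunit of the H3.1 chaperone CAF-1, was lower (-0.46 ± 0.11) but not with the length trend removed (-0.26, adjusted p = 0.054, limma). Of the other CAF-1 subunits on the list FAS2 (-0.07) was not called and MSI1 was called higher (0.27 ± 0.10).

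Of 16 genes for transcript elongation and histone marks 10 were called lower and 1, CDC73, higher, with a median of -0.26. Among all genes 31.2% were lower and 22.3% higher. SPT16 and SSRP1, the subunits of the chaperone FACT, differed by -0.54 ± 0.05 and -0.36 ± 0.05, and the methyltransferase SDG8 by -0.48 ± 0.07. VIP6 of the Paf1 complex differed by -0.47 ± 0.06. With the length trend removed 4 of the 16 were lower and 2 higher. Over all 19088 tested genes that setting gave 4579 lower, so the lower share of the list was then near that of all genes. Without h3.3kd replicate 1 CDC73 was no longer among the calls, leaving 11 lower and none higher. Of 14 tested genes for DNA methylation and linker histones, 5 were lower (3 with the length trend removed) and the 4 that rose were the H1 genes and DRM2. The methyltransferases MET1 (-0.61 ± 0.08) and CMT3 (-0.51 ± 0.10) were both lower.

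The 10 largest rises and 10 largest falls were chosen from calls whose groups did not overlap and whose mean over the 6 libraries reached 5 TPM. Of the 10 rises, 3 were the histone genes AT3G53730, H1.3 and AT3G45930. AT2G05915, an uncharacterized gene on chromosome 2, had 45.1, 36.6 and 53.2 TPM in h3.3kd against 1.66, 1.17 and 4.62 TPM in Col (3.83 ± 0.32). AT1G09500 and AT1G07450, both annotated as NAD(P)-binding Rossmann-fold proteins, differed by 3.77 ± 0.20 and 3.27 ± 0.19. CER1, an enzyme of alkane formation in cuticular wax, had 25, 20 and 28 TPM in h3.3kd against 2.83, 3.99 and 2.54 TPM in Col (2.62 ± 0.17). AT5G65980, of the auxin efflux carrier family, and AT5G63350 rose by 3.11 ± 0.17 and 2.73 ± 0.17. In AT2G37870, a lipid-transfer protein gene, h3.3kd replicate 1 had 3.62 TPM and the other h3.3kd libraries 16.3 and 17.3 TPM, against 0.507, 0.473 and 1.79 TPM in Col.

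The largest falls left several genes near 0 in h3.3kd. AT3G05727, annotated as a pollen coat protein of the SLR1-binding family, had 0.901, 0.885 and 0.308 TPM in h3.3kd against 72.6, 98.8 and 74.3 TPM in Col (-5.62 ± 0.17, adjusted p = 1.7e-14, limma). M17, a late embryogenesis abundant protein gene, had 0.214, 1.4 and 0.293 TPM in h3.3kd against 78.2, 54.9 and 70 TPM in Col (-5.45 ± 0.30). AT3G16670, of the Ole e 1 and extensin family, was listed at 0 in 1 h3.3kd library and at 0.272 and 0.178 TPM in the others, against 58.1, 31.1 and 32.7 TPM in Col. Lipid-transfer genes were among them: AT4G22490 had 2.05, 2.9 and 1.86 TPM in h3.3kd against 86.7, 106 and 96.9 TPM in Col. AZI1, named for its induction by azelaic acid, had 0, 0.405 and 0.211 TPM in h3.3kd against 24.7, 21.2 and 20.5 TPM in Col. All 5 of these genes were at or below 2.9 TPM in every h3.3kd library. AT3G05727, AT3G16670 and AZI1 passed the filter only through Col, so a lower level was the only call open to them.

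Genes of the cell wall and of lipids were among the rest. FLA13, a fasciclin-like arabinogalactan protein, had 16.4, 13.1 and 14.9 TPM in h3.3kd against 257, 254 and 232 TPM in Col (-3.98 ± 0.12). MIOX2, which opens the inositol route to cell wall sugars, had 2.66, 4.74 and 5.14 TPM in h3.3kd against 84.3, 105 and 96.8 TPM in Col (-4.25 ± 0.24). ADS1, a fatty acid desaturase, had 0.375, 0.369 and 0.769 TPM in h3.3kd against 25, 20.8 and 20.3 TPM in Col. ADS1 also passed the filter only through Col, so a lower level was the only call open to it. XTH15, an enzyme that cuts and rejoins xyloglucan, differed by -3.92 ± 0.20, and the cytochrome P450 gene AT3G44970 by -3.87 ± 0.16.

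**Figure D3:**
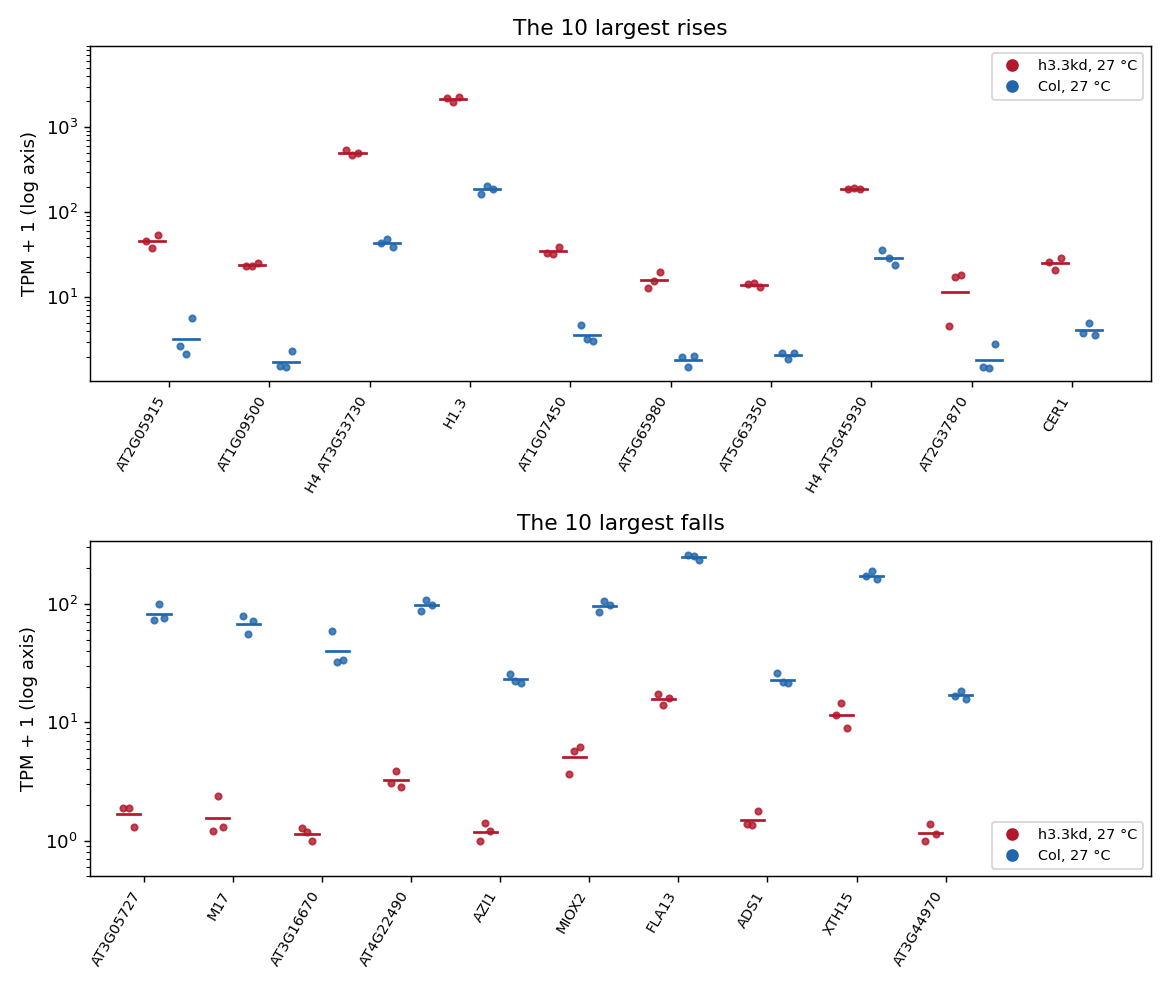
Levels of the 10 genes with the largest rises (top) and the 10 with the largest falls (bottom) in the 3 h3.3kd (red, left) and 3 Col (blue, right) libraries at 27 °C, as TPM + 1 on a log axis; points are libraries and bars the mean on the log scale. H1.3 and the H4 gene AT3G53730 reach the highest levels among the rises, and in the falls the h3.3kd values of 6 genes are at or below 1.4 TPM in every library.

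Of 18 cell wall expansion genes 10 were called lower and 2 higher, with a median of -0.28. Of the 10 XTH genes on the list 8 were called lower. XTH4, the most abundant, had 356, 317 and 304 TPM in h3.3kd against 885, 856 and 967 TPM in Col (-1.47 ± 0.10). XTH16, XTH17 and XTH33 differed by -2.25 ± 0.16, -2.18 ± 0.18 and -2.15 ± 0.23. The expansins, which loosen walls, did not share one direction. EXPA4 had 127, 162 and 144 TPM in h3.3kd against 72.3, 59.7 and 74.4 TPM in Col (1.06 ± 0.12) and EXPB3 rose by 1.48 ± 0.18, while EXPA3 (-0.29) and EXPA5 (-0.48) were lower and EXPA1, EXPA8, EXPA10 and EXPA11 were not called. Arabinogalactan proteins, a family taken by product name after seeing values, had 27 lower and 3 higher of 42 tested.

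Among 20 tested warm and shade growth regulators 5 were called higher and 5 lower, shares near those of all genes, with a median of -0.12; the higher ones were 3 without Col replicate 1, h3.3kd replicate 1 or h3.3kd replicate 3, and the lower ones 3 with median-of-ratios scaling. The growth-promoting factors PIF4 and PIF5 were lower. PIF4 had 12.3, 11.1 and 11.2 TPM in h3.3kd against 15, 21.1 and 22 TPM in Col (-0.68 ± 0.12). PIF5 had 22.4, 22.7 and 23.1 TPM in h3.3kd against 34.7, 48.3 and 45.6 TPM in Col (-0.87 ± 0.12). Of 5 shade homeobox genes HB-2, HAT2 (0.34) and HAT3 (0.38) were called higher, HAT1 lower, and HB4 was not called. HB-2 had 28.3, 27.2 and 26.7 TPM in h3.3kd against 14.6, 13.1 and 14.9 TPM in Col (0.90 ± 0.12), and HAT1 had 30.5, 31.8 and 25.3 TPM in h3.3kd against 61.1, 63.5 and 62 TPM in Col (-1.07 ± 0.15). The photoreceptor PHYB was slightly lower (-0.22) and PIF7 and COP1 were not called.

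All 8 tested auxin synthesis genes were called, 6 lower and 2 higher, with a median of -0.66. YUC8, the flavin monooxygenase gene tied to PIF4 in warmth, had 14.1 ± 3.42 TPM in h3.3kd and 33 ± 3.77 TPM in Col (SD, n = 3 each), with no overlap (-1.19 ± 0.26, adjusted p = 0.00075, limma). YUC9, YUC2, YUC5, YUC6 and TAA1 were lower by values between -0.58 and -0.82. YUC3 and TAR2 went the other way, with 12, 14.7 and 9.42 TPM of YUC3 in h3.3kd against 5.7, 5.4 and 5.33 TPM in Col. YUC1, YUC4 and YUC7 were too low to be tested.

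Auxin response genes changed in both directions, only partly by family. Of 24 tested, 10 were lower and 7 higher, against 31.2% lower and 22.3% higher among all genes. The Aux/IAA repressor genes, which auxin induces, gave most of the lower calls: IAA29 had 15.1, 18.7 and 14.4 TPM in h3.3kd against 36.7, 39.8 and 41.1 TPM in Col (-1.24 ± 0.20). IAA19 had 10.2, 11.7 and 8.08 TPM in h3.3kd against 28.3, 21.1 and 28 TPM in Col (-1.28 ± 0.19), and IAA6 differed by -1.86 ± 0.31. IAA1, IAA3, IAA4 and IAA30 were not called. Among the GH3 genes GH3.6 was lower (-0.97 ± 0.11), GH3.1 was higher (0.62 ± 0.20), and GH3.3 and GH3.5 were not called. The small SAUR19 to SAUR24 genes, which promote cell expansion, were all 6 called higher. SAUR22 had 25, 33.3 and 32 TPM in h3.3kd against 7.02, 14.3 and 14.2 TPM in Col (1.33 ± 0.27), and the other 5 rose by 0.82 to 1.17. The SAUR copies are near-identical neighbours on chromosome 5, so reads may have been split between them.

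Of 18 tested gibberellin and brassinosteroid genes, 11 were called lower and 1, the gibberellin receptor GID1A, higher, with a median of -0.39. The call of GID1A (0.17) was absent in several alternatives, among them leaving out Col replicate 1 or 3 or h3.3kd replicate 1 or 2. DWF4, a rate-limiting enzyme of brassinosteroid synthesis, had 22.3, 22.3 and 20.8 TPM in h3.3kd against 41.9, 43.5 and 48.5 TPM in Col (adjusted p = 6.8e-10, limma). The brassinosteroid receptor BRI1 and the factors BZR1 and BES1 differed by -0.34, -0.39 and -0.38. Of the other brassinosteroid genes on the list CPD (-0.12) and BR6OX2 (0.00) were not called, and BAS1 was lower (-0.47 ± 0.11). All 3 tested genes of gibberellin breakdown were called lower, GA2OX6 by the most (-1.64 ± 0.14). Of 4 genes of its synthesis GA3OX1 was called lower (-0.71 ± 0.18) and GA20OX1, GA20OX2 and GA3OX2 were not called.

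Of 24 tested heat shock genes 11 were called higher and 1 lower, with a median of 0.24. The largest changes were in small heat shock proteins at low levels. HSP17.6A had 10, 15.3 and 19.5 TPM in h3.3kd against 3.18, 3.77 and 3.43 TPM in Col (1.79 ± 0.30). HSP17.6C had 4.15, 11.1 and 11.1 TPM in h3.3kd against 3.12, 1.55 and 2.52 TPM in Col (1.45 ± 0.30). HSP17.4 was uneven, with 6.06, 28.2 and 29.7 TPM in h3.3kd against 5.99, 7.93 and 9.07 TPM in Col, so that h3.3kd replicate 1 overlapped Col. HSP70-1, the main cytosolic chaperone gene of the list, had 2252, 2499 and 2332 TPM in h3.3kd against 1659, 1468 and 1586 TPM in Col (0.59 ± 0.07), and the co-activator MBF1C rose by 1.02 ± 0.16. HSP101, the disaggregase, was the lower gene (-0.36 ± 0.13), with overlapping groups, a call absent with median-of-ratios scaling or without Col replicate 2, Col replicate 3 or h3.3kd replicate 1. Of 10 chaperones of the endoplasmic reticulum 2 were lower, SHD and PDIL1-1, and none higher, with a median of -0.10. SHD (-0.29 ± 0.06) lost its call, of the alternatives run, only with the length trend removed, where none was lower and 2 were higher. PDIL1-1 (-0.18 ± 0.07) also lost it with median-of-ratios scaling, with only the compared groups fitted, and without Col replicate 1, Col replicate 3, h3.3kd replicate 1 or h3.3kd replicate 3.

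Of 15 tested clock genes 6 were lower and 3 higher, against 31.2% lower and 22.3% higher among all genes. The evening gene GI and the day genes PRR7 and LNK2 were lower: GI had 0.841, 1.39 and 1.03 TPM in h3.3kd against 3.75, 4.84 and 5.73 TPM in Col (-1.46 ± 0.17). ELF4, of the evening complex, had 167, 158 and 169 TPM in h3.3kd against 95, 98.3 and 81.6 TPM in Col (0.84 ± 0.07), while its partners ELF3 (-0.35) and LUX (-0.24) were lower. CCA1, LHY, PRR9 and LNK1 were too low to be tested, and the hour of harvest is not given. Of 12 tested flowering genes 2 were called higher and 4 lower, against the same shares of all genes. SOC1, a promoter of flowering, had 7.01, 4.2 and 6.1 TPM in h3.3kd against 1.4, 1.84 and 1.2 TPM in Col (1.44 ± 0.17). MAF4 was higher as well (0.63 ± 0.16). FD (-1.18 ± 0.23), SPL3 (-1.08 ± 0.16), SVP (-0.43) and FLM (-0.33) were lower, and FLC, the repressor removed by winter cold, was not called.

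The 25 photosynthesis genes had 8 higher and 9 lower, against 22.3% higher and 31.2% lower among all genes, with a median of 0.04. The largest changes were in antenna genes: LHCB4.3 had 32.4, 38.5 and 28.6 TPM in h3.3kd against 12.4, 8.47 and 9.46 TPM in Col (1.63 ± 0.13). LHCB4.1 and LHCB4.2 were not called. LHCB1.4 had 379, 395 and 373 TPM in h3.3kd against 612, 834 and 826 TPM in Col (-0.97 ± 0.11), while LHCB1.2 and LHCB1.3 were higher. All LHCB2 genes on the list were lower: LHCB2.1, LHCB2.2 and LHCB2.3 differed by -0.70 ± 0.12, -1.07 ± 0.19 and -1.18 ± 0.19. LHCA2, LHCA3 and LHCA4 were lower and LHCA1 was higher. RBCS1A, the most abundant Rubisco small subunit gene, had 23403, 24554 and 22874 TPM in h3.3kd against 19179, 18087 and 17511 TPM in Col (0.37 ± 0.10).

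Of 9 tested salicylic acid genes 4 were lower (2 without Col replicate 3) and 1 higher, ICS1, the entry enzyme of salicylic acid synthesis, with 8.95, 11 and 12 TPM in h3.3kd against 6.22, 5.59 and 5.35 TPM in Col. PR1, PR2 and PR5 were not tested. For this and the next 3 lists, the shares over all genes were 31.2% lower and 22.3% higher. Of 13 tested jasmonate genes 6 were lower and 1 higher. AOC2, an enzyme of jasmonate synthesis, had 7.24, 12.6 and 7.68 TPM in h3.3kd against 31.5, 18.3 and 25.2 TPM in Col (-1.36 ± 0.25). The storage protein VSP1 differed by -2.32 ± 0.28. VSP1 passed the filter only through Col, so a lower level was the only call open to it. The 13 tested rapid stress genes had 5 lower and 2 higher (1 without Col replicate 1), led by the calmodulin-like TCH3 (-1.28 ± 0.19). The 13 tested cold and abscisic acid genes had 3 each way: COR15B (1.93 ± 0.30) and RD29A (1.12 ± 0.20) rose. COR15B passed the filter only through h3.3kd, so a higher level was the only call open to it. COR47 was lower, with 125, 141 and 151 TPM in h3.3kd against 275, 288 and 308 TPM in Col (-1.06 ± 0.06).

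Of 8 tested flavonoid genes 5 were higher and 1 lower, with a median of 0.50. CHS, the first enzyme of the pathway, had 122, 155 and 173 TPM in h3.3kd against 82.6, 67.4 and 69.8 TPM in Col (1.02 ± 0.13), and F3H, CHI, F3PH and FLS1 rose by 0.45 to 0.92. Their regulator MYB111 was lower (-0.99 ± 0.17), and the late anthocyanin genes DFR and LDOX were not tested. Of 13 tested aliphatic glucosinolate genes 3 were lower and 2 higher, no more than the shares of all genes, 31.2% and 22.3%. CYP83A1 had 0.935, 3.94 and 2.56 TPM in h3.3kd against 25.9, 23 and 29.7 TPM in Col (-3.06 ± 0.33), and the regulator MYB28 averaged 15.4 ± 2.49 TPM in h3.3kd and 42.6 ± 2.59 TPM in Col (SD, n = 3 each; -1.42 ± 0.11). MAM1 was lower (-1.10 ± 0.28) and its paralogue MAM3 higher (0.99 ± 0.23).

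**Figure D4:**
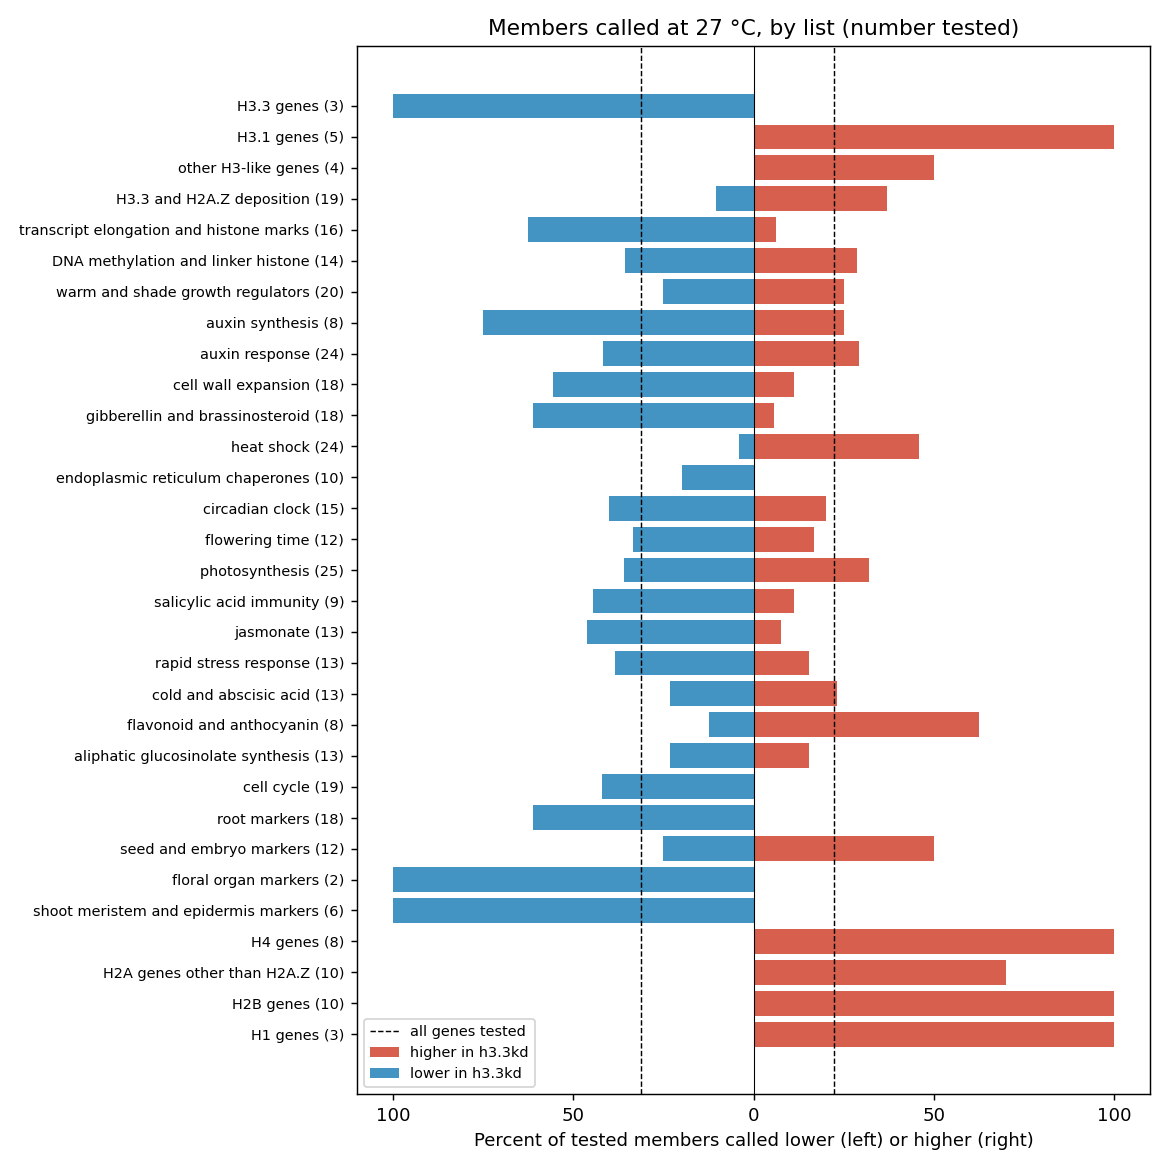
Percent of the tested members of each gene list that were called lower (blue, left) or higher (red, right) in h3.3kd against Col at 27 °C; the number tested stands after each name and the dashed lines mark all 19088 genes, 31.2% lower and 22.3% higher. The H3.1, H4, H2B and H1 bars reach every tested member on the higher side, and the H3.3, floral and shoot bars every tested member on the lower side. The 2 tested floral genes passed the filter only through Col.

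Whole seedlings hold several organs, and fewer cells of a type cannot be told apart from less RNA per cell. Of 18 tested root markers 11 were lower and none higher, with a median of -0.71, and the summed level of all 22 was 235, 283 and 233 TPM in h3.3kd against 492, 399 and 447 TPM in Col. The lower ones were those of the endodermis, root hairs and iron uptake. CASP5, of the Casparian strip, had 6.67, 8.09 and 4.73 TPM in h3.3kd against 26.6, 25.5 and 26 TPM in Col (-1.88 ± 0.16), and CASP2 differed by -1.56 ± 0.13. FRO2, the root iron reductase, had 7.39, 14.1 and 7.5 TPM in h3.3kd against 48.1, 19.7 and 24.2 TPM in Col. PRP3, a root hair wall gene, differed by -1.13 ± 0.15, and EXPA7, a root hair expansin, averaged 2.75 TPM in h3.3kd and 6.49 TPM in Col. SHR (0.01), SCR (0.15), MYB36 (0.12) and GPAT5 (0.05), which mark the stele, endodermis and suberin, were not called. Genes named root hair specific had 9 lower and none higher of 11 tested, and peroxidases had 24 lower and 5 higher of 44. Both families were taken by product name after seeing values.

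All 6 tested shoot meristem and epidermis markers were lower, with a summed level over 10 genes of 117 ± 3.22 TPM in h3.3kd and 180 ± 9.67 TPM in Col (SD, n = 3 each). ATML1, an epidermal factor, had 46.1, 43.1 and 45.3 TPM in h3.3kd against 76.4, 82.2 and 84.5 TPM in Col (-0.84 ± 0.05). STM, of the meristem, was lower by -0.61 ± 0.19, a call lost without Col replicate 2 or 3. The floral markers PI and SEP3 were low and lower, at 0.21 to 0.847 TPM in h3.3kd against 1.9 to 4.41 TPM in Col. Both passed the filter only through Col, so a lower level was the only call open to them. The other 4 of the 6 floral markers were not tested. Of 12 tested seed and embryo markers 6 were higher (4 without h3.3kd replicate 1) and 3 lower, and the summed level of 16 was 407, 326 and 369 TPM in h3.3kd against 239, 266 and 262 TPM in Col. CRU3, a seed storage protein, had 139, 89.4 and 124 TPM in h3.3kd against 30.2, 44.6 and 30.9 TPM in Col (1.71 ± 0.29), while OLEO2, an oil body protein, was lower (-1.26 ± 0.18). No member of these 4 lists was at 0 in all 6 libraries. The part of these cell type differences in the other results was not tested.

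Genes whose product names a ribosomal protein, a family also taken after seeing values, changed by small amounts, mostly in one direction: of 290 tested, 204 were higher and 12 lower (7 lower without h3.3kd replicate 1, 4 without h3.3kd replicate 3, 3 without Col replicate 1), with a median of 0.30. Their median exon length was 1030 bases, within the shortest of the 5 length groups. With the length trend removed 164 were higher and 20 lower, with a median of 0.21. Organellar and cytosolic ribosomal proteins are not fully separated by these names.

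The same genotypes were compared at 21 °C in 6 other libraries, to ask which differences were there without warmth. At 21 °C 6691 of the same 19088 genes were called (35.1%), 2570 higher (13.5%) and 4121 lower (21.6%). The higher genes shared 1738 members, 40.8% of those at 27 °C and 67.6% of those at 21 °C. The lower genes shared 2886, 48.4% of those at 27 °C and 70% of those at 21 °C. Calls of opposite direction numbered 186 and 88. The difference between the h3.3kd effects at the 2 temperatures was itself called for 3719 genes (19.5%), 1823 positive (9.55%) and 1896 negative (9.93%). Of the genes higher at 27 °C, 1398 had a positive and 59 a negative difference. Of those lower, 1599 had a negative and 45 a positive one. A called difference thus mostly had the sign of the effect at 27 °C. Genes were selected at 27 °C for this count, which by itself favours that outcome. The count does not tell at which temperature the effect was larger, since it also holds genes with opposite effects at the 2 temperatures.

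The histone pattern was present at both temperatures. All 8 H4, 5 H3.1 and 3 H1 genes were also called higher at 21 °C, where the summed H4 level was 2491, 2490 and 2311 TPM in h3.3kd against 745, 766 and 779 TPM in Col. The difference of effects was called and positive for 7 of the 8 H4 genes, from 0.40 for HIS4 to 1.39 for AT3G53730, and not called for AT1G07660. For H1.3 it was 0.41 and not called (adjusted p = 0.1, limma), with 1084 TPM in h3.3kd and 124 TPM in Col at 21 °C as means. The H3.3 genes were less far below Col at 27 °C: the difference was 0.76 for HTR8, 0.62 for HTR4 and 0.42 for HTR5, all called. The summed H3.3 level in h3.3kd was 326 to 349 TPM at 27 °C and 327 to 346 TPM at 21 °C, while in Col it was 956 to 1019 TPM at 27 °C and 1350 to 1388 TPM at 21 °C.

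For ribosomal proteins, root markers and heat shock genes the calls at 21 °C were of another kind. Ribosomal proteins had 26 higher and 48 lower at 21 °C, and 171 of 290 had a called positive difference against 1 negative. The length trend also differed between the temperatures. The shortest length group, which holds their median length, had a median of 0.15 at 27 °C and -0.01 at 21 °C. The longest group had -0.22 and -0.11. The part of length in the ribosomal difference was not tested. Root markers had 3 higher and 2 lower at 21 °C, and 8 of 18 had a negative difference: CASP5 averaged 7.51 TPM in h3.3kd and 4.84 TPM in Col at 21 °C, a difference of effects of -2.43. Heat shock genes had 3 higher and 4 lower at 21 °C, and 7 of 24 had a positive difference against 1 negative. Auxin synthesis genes had 2 higher and 1 lower at 21 °C, where YUC8 averaged 3.14 TPM in h3.3kd and 2.99 TPM in Col, and its difference of effects was -1.25 (adjusted p = 0.022, limma). PIF4 and PIF5 were not called at 21 °C, and their differences were -0.84 and -0.96, both called.

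The genes with the largest differences of effect were chosen from calls whose mean over the 12 libraries reached 5 TPM. AT5G42530, an uncharacterized gene, differed by 3.63. Its values overlapped at 27 °C, with 3.11, 4.98 and 4.72 TPM in h3.3kd against 2.91, 5.66 and 2.2 TPM in Col, and at 21 °C it averaged 0.945 TPM in h3.3kd and 20.9 TPM in Col. TGG2, a myrosinase that cleaves glucosinolates, differed by 3.59. It was higher at 27 °C, with 44.4, 38.4 and 37.5 TPM in h3.3kd against 31.2, 20.2 and 22 TPM in Col, and lower at 21 °C, where it averaged 3.78 TPM in h3.3kd and 34.1 TPM in Col. HSP17.6A (3.55) and the seed storage albumin gene SESA5 (3.47) were higher in h3.3kd at 27 °C and lower at 21 °C. In the other direction, ADS1 differed by -3.71 and FAR1, a fatty acid reductase that makes alcohols for suberin, by -3.21. Both fell at 27 °C, FAR1 to between 13.1 and 21.2 TPM in h3.3kd, against 112 to 144 TPM in Col, and neither was called at 21 °C. The desiccation-like gene AT1G47980 (-3.38) was lower in h3.3kd at 27 °C and higher at 21 °C, and MIOX2 (-3.04) was lower at both.

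**Figure D5:**
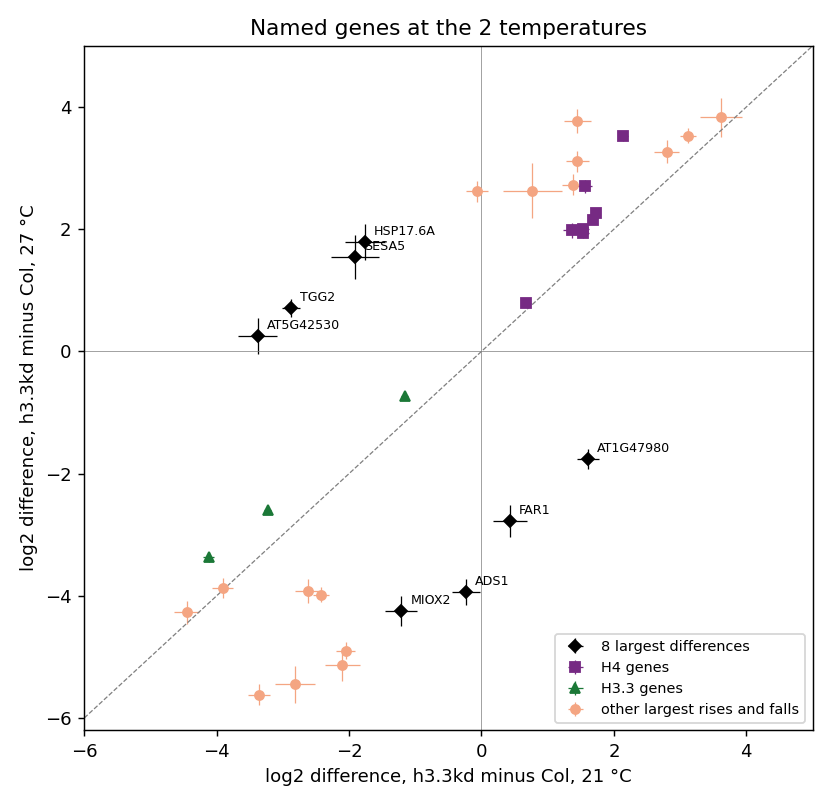
Log2 difference, h3.3kd minus Col, at 27 °C (vertical axis) against 21 °C (horizontal axis) for the H3.3 genes (green triangles), the H4 genes (purple squares), the 8 genes with the largest difference between temperatures (black diamonds) and the other largest rises and falls (orange circles); bars are standard errors and the dashed line marks equal values. The 8 H4 genes lie above the line with positive values at both temperatures, the 3 H3.3 genes lie above it with negative values, and HSP17.6A and SESA5 change sign between the temperatures.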

How the data were processed

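RNA was measured by RNA-seq in 18 libraries, 3 for each of 6 groups of genotype and temperature. The authors deposited 1 table of TPM values for 27655 genes. Tools listed in the submitters' processing notes, without roles, are HISAT2 2.1.10, HTSeq 0.11.2, fastp 0.20.1 and DESeq2 1.26.0, and the build is TAIR10, and strand use is not given in the sources used here. Nuclear genes (27445) were rescaled to 1000000 per library. Genes with at least 1 TPM in 3 of the 6 libraries at 27 °C were fitted as log2(TPM + 1) in limma 3.58.1 (R 4.3.3) with an intensity trend and 1 mean per group over all 18 libraries, with Benjamini-Hochberg adjustment. The fit was tested on simulated data. Values on a TPM scale hold no counts, so no count model was used, and depth was only estimated.

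Named genes were the H3.3 genes, the 10 largest rises and falls at a mean of at least 5 TPM without overlap, the 4 largest differences between temperatures each way, and, per list, at most 4 called genes ranked by size of change. Others were named after their values were seen. The members and lists were chosen with earlier results of these data known. Gene positions and sequences are from TAIR10.1. Alternatives covered the pseudocount, filter, scaling, organelle genes, libraries fitted, replicate number, each library left out and a length trend.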

Additional observations from a re-analysis of the deposited data

Results flagged for a closer look

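The h3.3kd effect differed between 27 and 21 °C, by the interaction term of the limma fit (adjusted p below 0.05), for 3719 of the genes tested. Given here are the H3.3 and H4 genes among them and the largest differences each way. All values here are the effect at 27 °C minus that at 21 °C on the log2(TPM + 1) scale.

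The H3.3 genes were less far below Col at 27 °C, by 0.62 for HTR4, 0.42 for HTR5 and 0.76 for HTR8. The H4 genes were farther above Col at 27 °C, by 1.39 for AT3G53730, 1.13 for AT3G45930, 0.62 for AT3G46320, 0.54 for AT1G07820, 0.47 for AT5G59690, 0.46 for AT5G59970 and 0.40 for HIS4.

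The largest positive differences were 3.63 for AT5G42530, 3.59 for TGG2, 3.55 for HSP17.6A and 3.47 for SESA5. The largest negative ones were -3.71 for ADS1, -3.38 for AT1G47980, -3.21 for FAR1 and -3.04 for MIOX2.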

How the results depend on the processing

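Requiring a change of at least 2-fold left 1292 called genes at 27 °C, 644 at 21 °C and 496 for the difference between temperatures. Leaving out 1 library at a time gave 8950 to 9467 calls at 27 °C, 5330 to 6038 at 21 °C and 2866 to 3569 for the difference. The difference in organelle share, 1.17 percentage points over all libraries, ranged from 0.0378 without h3.3kd replicate 1 to 1.76 without h3.3kd replicate 2. Median-of-ratios scaling gave 10138 calls at 27 °C, 5328 higher and 4810 lower, and moved the median difference of all genes to 0.02. Removing the length trend gave 9333, of which 8091 were shared with the 10225. Among 135 genes, those named by rule and AT4G40042, no direction reversed in any alternative, and 24 of 1864 values lost their call. Most of them were picked for large called changes in these same data, which favours stable calls. Genes named outside the rule, such as GID1A, HSP101 and CDC73, were not among the 135.

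The fit with the replicate number as a block gave 10051 calls at 27 °C, 6493 at 21 °C and 3496 for the difference. Same-numbered h3.3kd and Col libraries at 27 °C had deviations correlated at -0.00724, -0.0666 and 0.115 across genes, so the numbers were not taken as pairs. Depth is known only as an estimate, which limits what can be said of genes near 1 TPM.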
